A study of Homo sapiens with 23 samples.

Results

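Serpins are a family of proteins that share one fold, most of which inhibit serine proteases. The serpin genes were taken as all genes of the deposited tables whose symbol is SERPIN followed by a clade letter from A to I and a number, which gave 35 of 60564 genes. Angiotensinogen, a serpin listed under its own symbol AGT, was not matched by this rule. Of the 35 genes, 30 were above 0 in TPM, a length-normalised share of the library's transcripts, in at least 1 library, and SERPINB3, SERPINB4, SERPINB7, SERPINB11 and SERPINB12 were listed at 0 in every library.

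The data were 23 mRNA-seq libraries of 2 human cell lines grown on a microfluidic gut-liver chip. Caco-2 is an intestinal epithelial line from a colorectal adenocarcinoma, with 11 libraries here, and HepG2 is a line from a hepatocellular carcinoma, with 12 libraries. Each line was kept alone on the chip (mono-culture) or connected through circulating medium to the chamber of the other line (co-culture), and was either left without free fatty acids (FFAs; control) or treated with 1 mM FFAs, palmitic and oleic acid together, for 1 day. The 8 groups held 3 libraries each, apart from the co-cultured Caco-2 control group, which held 2. The labels describe medium with 0.5% serum during treatment, whereas the methods of the study describe serum-free medium. Both lines are tumour lines and none of the groups holds primary hepatocytes or enterocytes. The study's methods say that the sequencing experiments were repeated independently, and its reporting summary calls the replicates biological, but neither these nor the labels tie a library to an experiment or a chip. The p-values therefore measure the spread between these libraries, part of which may be technical. TPM carry no read counts, so the depth behind each level is unknown and low levels have an unknown counting error.

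An inhibitory serpin offers a flexible reactive centre loop as bait. When the protease cuts the loop, the serpin snaps into a more stable shape, drags the protease along and traps it in a covalent complex. Hepatocytes are the main source of the serpins of blood plasma, which restrain neutrophil elastase, thrombin, plasmin and the complement proteases. Some members have lost inhibition and carry hormones or fold collagen instead, and clade B members mostly stay inside the cell.

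HNF1 is a transcription factor of hepatocytes and intestinal epithelium, and SERPINA1 is one of its classical targets. RefSeq windows of 250 bases upstream of a transcription start (GRCh38.p14) were at hand for 27 of the 35 members. The HNF1 half-site GTTAAT, searched on both strands, was in 7 of the 41 windows of these members, 1 window in each of 7 genes, and in 6.23% of 35116 windows of all genes. The 30 bases around it are shown, on the strand of the gene with the half-site in capitals, for the 5 of these 7 members whose mRNA was above 1 TPM in HepG2, because the same letters precede genes with very different patterns in the cell lines:
SERPINA1: ggggtgaccttgGTTAATattcaccagcag
SERPINA4: cgtagcctgtttGTTAATaattacctggtc
SERPINA6, site 1: acgcagagcaaaGTTAATttgcagcatttc
SERPINA6, site 2: agcctcccattgGTTAATgactcgggggag
SERPINA6, site 3: gcccctctaaccATTAACcacccaggaagc
SERPINA7: cccaggGTTAATgctgggGTTAATttataa
SERPINA10: cacaagcaggatGTTAATcagtaaccgtcc

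The SERPINA1 site is at chr14:94388661-94388690 on the minus strand, 76 bases before the start, and the SERPINA4 site at chr14:94561355-94561384 on the plus strand, 75 bases before the start. SERPINA6 sites 1 to 3 are at chr14:94323489-94323518, chr14:94323434-94323463 and chr14:94323377-94323406, the SERPINA10 site at chr14:94293306-94293335 and the pair of SERPINA7 sites at chrX:106038792-106038821, all on the minus strand. Of the 12 fixed letters of the full palindrome GTTAATNATTAAC, 11 matched at SERPINA4 and at SERPINA10, 10 at SERPINA7 and 9 at SERPINA1. With up to 2 letters differing, the palindrome was in 4 of the 41 windows (SERPINA4, SERPINA7, SERPINA10 and SERPINI2) and in 1.24% of all windows. The windows of SERPINA3, SERPINA5 and SERPINA11 held no half-site. Other motifs were the STAT site TTCNNNGAA (8 of the 41 windows, 6.57% of all windows), the TATA box TATAAA (8 of 41, 10.7%) and CAAAGTCCA, a site of HNF4 (0 of 41, 0.325%), both strands each time. These matches describe letters only, and no binding was measured.

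Several marker genes separated the lines as labelled, but not all did. Albumin (ALB) was at 320.9 to 768.5 TPM in Caco-2 and at 20460 TPM or more in every HepG2 library, and the intestinal cadherin CDH17 was at 353.6 to 479.6 TPM in Caco-2 and at 2.75 TPM or less in HepG2. The hepatocyte genes APOA1 (7544 to 15490 TPM in Caco-2 and 6591 to 13070 TPM in HepG2) and TTR (227.5 to 341.5 and 231.6 to 649.4 TPM) overlapped between the lines. The intestinal factor CDX1 was at or near 0 in Caco-2 (at most 0.18 TPM), while CDX2 reached 60.4 to 136.3 TPM there. Some libraries stood apart. In HepG2, the 4 libraries numbered 3 listed 21588 to 22416 genes above 0 TPM against 19259 to 20873 in the other 8, and 11.7% of the genes tested did not overlap between these libraries and the others. In Caco-2, 3.04% of genes did not overlap between the 3 libraries numbered 3 and the other 8. The summed level of 33 genes that mark HepG2 reached 2.08% of its level in HepG2 in the co-cultured, FFAs-treated Caco-2 replicate 1 and 0.842% in the co-cultured Caco-2 control replicate 1, against 0.0889% to 0.242% in the other co-cultured and 0.104% to 0.181% in the mono-cultured Caco-2 libraries.

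Serpin mRNA made up a larger share of the HepG2 than of the Caco-2 libraries. Summed over the family, the level was 2542 TPM (median; 2053 to 2874) in Caco-2, or 0.254% of a library, and 7284 TPM (6168 to 10842) in HepG2, or 0.728%. The ranges of the lines did not overlap. SERPINA1 alone gave 51.8% (median) of the Caco-2 sum and 41.7% of the HepG2 sum. SERPINH1 gave 21.3% in Caco-2 and 1.72% in HepG2. In every library 19 to 22 members reached 1 TPM.

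**Figure D1:**
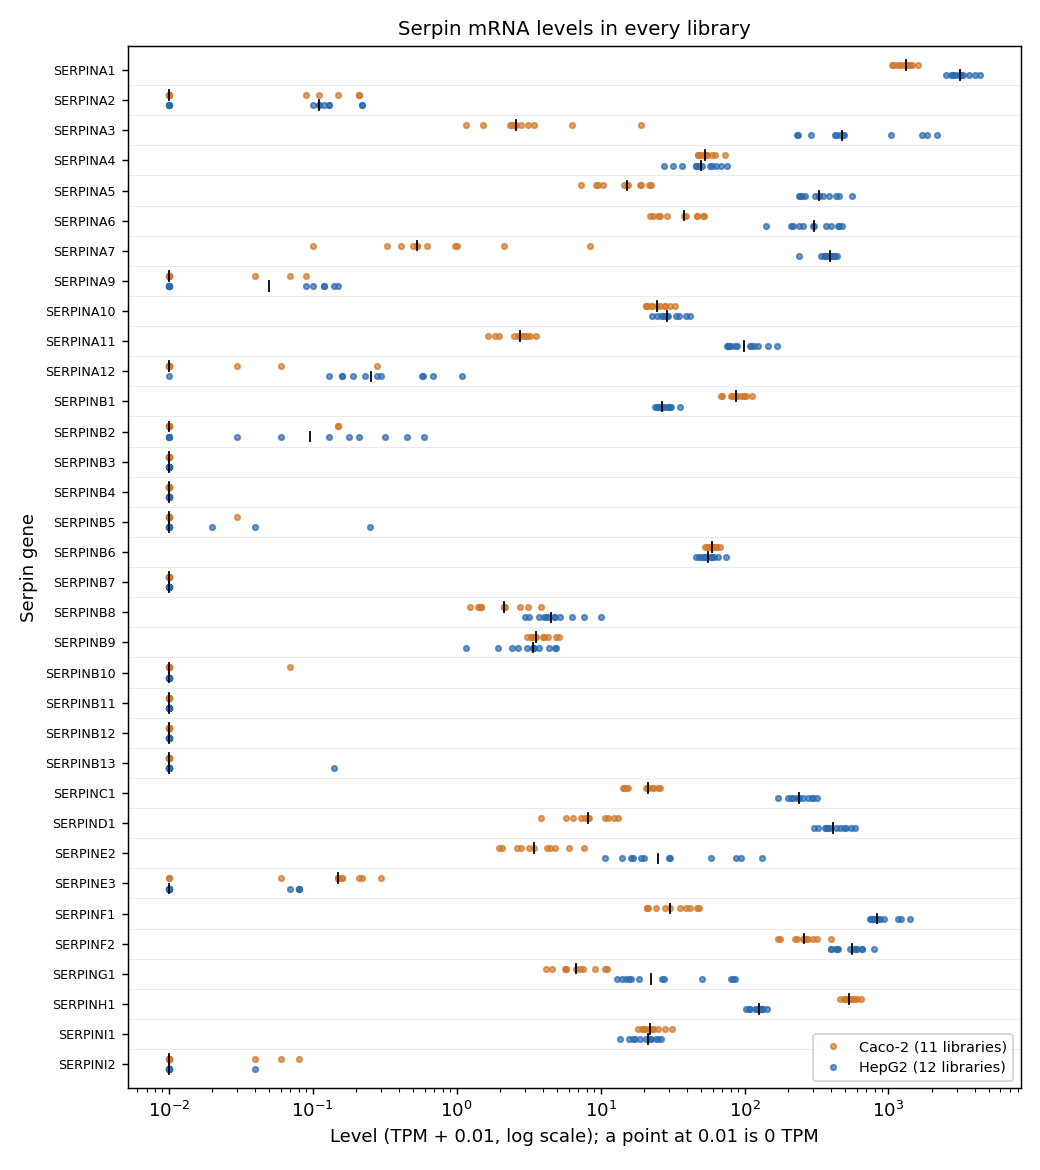
Level of the serpin genes in the 11 Caco-2 (orange) and 12 HepG2 (blue) libraries, as TPM + 0.01 on a log scale, with 1 point a library and a black tick at the median. SERPINA1 is at the top in both lines, SERPINA3, SERPINA7, SERPIND1 and SERPINF1 lie far apart between the lines, SERPINH1 and SERPINB1 are higher in Caco-2, and most clade B genes sit at the left edge.

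SERPINA1 encodes alpha-1 antitrypsin, the chief plasma inhibitor of neutrophil elastase. It was at 1053 (lowest), 1322 (median) and 1598 TPM (highest) in Caco-2 and at 2527, 3157 and 4320 TPM in HepG2. It ranked first of the family in both lines, and no library of one line reached into the range of the other. SERPINA3, alpha-1 antichymotrypsin, an acute-phase inhibitor of chymotrypsin-like proteases, was at 1.16, 2.59 and 19.18 TPM in Caco-2 and at 231.8, 473.8 and 2186 TPM in HepG2. The Caco-2 library at 19.18 TPM was the one with the most HepG2 marker RNA. In that library the HepG2 share by itself would give 19.4 TPM of SERPINA3, and it would give 7.54 TPM of the 8.41 TPM of SERPINA7.

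Among the inhibitors of clotting, SERPINC1, antithrombin, was at 14.27, 21.18 and 25.77 TPM in Caco-2 and at 170.3, 240.5 and 320.1 TPM in HepG2. SERPIND1, heparin cofactor II, which inhibits thrombin, was at 3.86, 8.17 and 13.16 TPM in Caco-2 and at 304.8, 414.6 and 581.9 TPM in HepG2. Both genes were thus well separated between the lines. SERPIND1 lies within PI4KA on the opposite strand, and PI4KA reached 41.3 TPM in Caco-2 and 43.0 TPM in HepG2, so without strand information reads of the pair could be shared. SERPINA5, the protein C inhibitor, was at 7.32, 15.26 and 22.4 TPM in Caco-2 and at 238.4, 330.0 and 557.8 TPM in HepG2. SERPINA10, which inhibits factor Xa together with protein Z, was at 20.62, 24.53 and 32.66 TPM in Caco-2 and at 22.77, 28.77 and 41.91 TPM in HepG2. For SERPINA10 the ranges overlapped over most of their length.

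The fibrinolysis serpins took different levels. SERPINF2, alpha-2 antiplasmin, the main inhibitor of plasmin, was at 169.5, 256.9 and 400.6 TPM in Caco-2 and at 396.1, 556.3 and 789.4 TPM in HepG2, and ranked after SERPINA1 and SERPINH1 in Caco-2 and after SERPINA1 and SERPINF1 in HepG2. SERPINE2, protease nexin-1, an inhibitor of thrombin and urokinase, was at 1.96, 3.42 and 7.66 TPM in Caco-2 and at 10.77, 25.06 and 131.4 TPM in HepG2. For SERPINE2 the lines did not overlap, although it spread several-fold within HepG2. SERPING1, the C1 inhibitor of complement and of the contact system, was at 4.14, 6.76 and 11.15 TPM in Caco-2 and at 12.89, 22.52 and 86.35 TPM in HepG2.

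SERPINA4, kallistatin, an inhibitor of tissue kallikrein, was at 47.36, 53.3 and 73.35 TPM in Caco-2 and at 27.59, 49.45 and 75.46 TPM in HepG2, so that the HepG2 range enclosed the Caco-2 range. SERPINA11 was at 1.65, 2.74 and 3.54 TPM in Caco-2 and at 75.92, 99.25 and 169.2 TPM in HepG2. The hormone carriers do not inhibit proteases. SERPINA6, the cortisol carrier, was at 21.91, 37.9 and 52.01 TPM in Caco-2 and at 141.7, 303.2 and 471.9 TPM in HepG2. SERPINA7, the thyroxine carrier, was at 0.09, 0.52 and 8.41 TPM in Caco-2 and at 238.2, 389.5 and 438.0 TPM in HepG2. SERPINA6 was therefore clearly present in Caco-2, while SERPINA7 stayed under 1 TPM in 9 of the 11 Caco-2 libraries. SERPINF1, pigment epithelium-derived factor, a secreted member without inhibition, was at 20.98, 30.37 and 48.46 TPM in Caco-2 and at 741.6, 833.4 and 1406 TPM in HepG2.

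SERPINH1, the collagen chaperone HSP47 of the endoplasmic reticulum, ran the other way, with 457.2, 535.8 and 645.2 TPM in Caco-2 and 102.0, 125.9 and 142.8 TPM in HepG2. SERPINB1, an inhibitor of neutrophil proteases that stays in the cell, was at 68.9, 87.56 and 112.8 TPM in Caco-2 and at 23.73, 26.87 and 35.38 TPM in HepG2. These were the 2 members whose lowest Caco-2 library lay above the highest HepG2 library. SERPINB6, a further intracellular inhibitor, overlapped between the lines, at 52.7, 59.75 and 67.34 TPM in Caco-2 and at 45.67, 55.92 and 74.03 TPM in HepG2. SERPINI1, neuroserpin, which inhibits tissue plasminogen activator, was at 18.18, 22.0 and 31.33 TPM in Caco-2 and at 13.55, 21.17 and 26.2 TPM in HepG2.

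The gene clusters differed in use. On chromosome 14, 10 members lie within 343.6 kb, and 7 of them had a median of at least 1 TPM in each line. SERPINA2, SERPINA9 and SERPINA12 did not, with at most 1.08 TPM in any library. In the annotation SERPINA5 begins at the start of SERPINA4 on the same strand, so the split of their reads is uncertain. On chromosome 18, 10 clade B members lie within 542.8 kb, and only SERPINB8 had a median of at least 1 TPM, at 2.13 TPM (1.22 to 3.85) in Caco-2 and 4.50 TPM (2.97 to 10.03) in HepG2. On chromosome 6, SERPINB1, SERPINB9 and SERPINB6 lie within 139.8 kb and all had a median above 1 TPM in both lines. SERPINB9, the granzyme B inhibitor, was low, at 3.55 TPM (3.06 to 5.13) in Caco-2 and 3.4 TPM (1.16 to 4.91) in HepG2. SERPINE3 and SERPINI2 were at most at 0.29 TPM, and 7 serpin pseudogenes at most at 1.37 TPM.

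Between the lines, differences were tested with limma on log2(TPM + 1). Genes entered if any group averaged 1 TPM or more, and 21 of the 35 members did. Differences and standard errors (SE) below are on this scale, which understates the change of genes near 0. Averaged over the 4 conditions, 15 members were higher and 2 lower in HepG2 at an adjusted p under 0.05, against a background of 79.0% of all 16495 genes. The share of members, 17 of 21, was thus close to the background. Of all genes, 4814 were higher and 8216 lower in HepG2. The median difference was 1.92 over the 21 members and -0.24 over all genes.

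SERPINA7 had the largest difference, 7.60 (SE 0.23, adjusted p 8.67e-17), followed by SERPINA3 with 7.13 (SE 0.44, adjusted p 8.51e-12) and SERPIND1 with 5.52 (SE 0.15, adjusted p 1.42e-17). SERPINA11 (4.85), SERPINF1 (4.78), SERPINA5 (4.49) and SERPINC1 (3.58) were also among the largest. Smaller differences passed for SERPINA6 (3.06), SERPINE2 (2.82), SERPING1 (1.92), SERPINA1 (1.3), SERPINF2 (1.04), SERPINB8 (0.98) and SERPINA10 (0.26). SERPINA10 was called at an adjusted p of 0.0236, and the adjusted p reached 0.0608 in 1 of 33 alternatives. SERPINH1 was lower in HepG2 by a difference of -2.12 (SE 0.07) and SERPINB1 by -1.63 (SE 0.08). SERPINI1 (-0.17), SERPINB9 (-0.23), SERPINA4 (-0.14) and SERPINB6 (-0.10) did not pass, and quantile normalization turned the sign of each of these 4.

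The 5 members shown with the half-site had differences of 7.60 (SERPINA7), 3.06 (SERPINA6), 1.3 (SERPINA1), 0.26 (SERPINA10) and -0.14 (SERPINA4). They had been kept for being above 1 TPM in HepG2, so their differences say nothing on the site. SERPINB12 and SERPINI2, which also held it, were too low to enter the test. In mono-culture without FFAs alone, 14 members were higher and 2 lower in HepG2, against a background of 62.4%. Without a model, 14 members did not overlap between the 12 HepG2 and the 11 Caco-2 libraries (12 higher and 2 lower in HepG2), against 42.7% of all genes. Without the libraries numbered 3, the difference was 6.40 for SERPINA3, 2.06 for SERPINE2 and 1.23 for SERPING1, all still past the threshold.

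Within a line, co-culture was compared with mono-culture. In such bulk libraries, fewer cells of a type and less RNA per cell cannot be told apart. In the fit without a replicate term, no member passed in Caco-2 or HepG2, either within a treatment or averaged over both treatments. The background of that fit was near 0 too. In Caco-2, 0.0199% of genes passed without FFAs, 0% with FFAs and 0% averaged over treatments, and in HepG2 0% passed in each treatment and 0.0561% averaged. At an unadjusted p under 0.05, 2 members were higher in co-cultured Caco-2 cells averaged over treatments, where 10.5% of all genes were under 0.05. Within a treatment, 2 (without FFAs) and 3 (with FFAs) members were under 0.05 in Caco-2, all higher, beside 5.43% and 6.09% of all genes. In HepG2 there were 6 and 3, all lower, beside 7.53% and 5.63%. Averaged in HepG2, 7 members were lower and none was higher, where 12.5% of all genes were under 0.05. The median difference of the 21 members was 0.12 in Caco-2 (0.03 over all genes) and -0.21 in HepG2 (-0.02 over all genes). With the replicate number as a block, SERPINA4, SERPINF2 and SERPINA6 passed as lower and SERPINE2 as higher in co-cultured HepG2 cells, averaged over treatments. They were among 492 of 14255 genes called in that fit. SERPINF1 then passed in Caco-2, among 60 of 15081 genes, but not once the library richest in HepG2 marker RNA was also left out. The block also raised the number of all genes called, as given at the end.

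**Figure D2:**
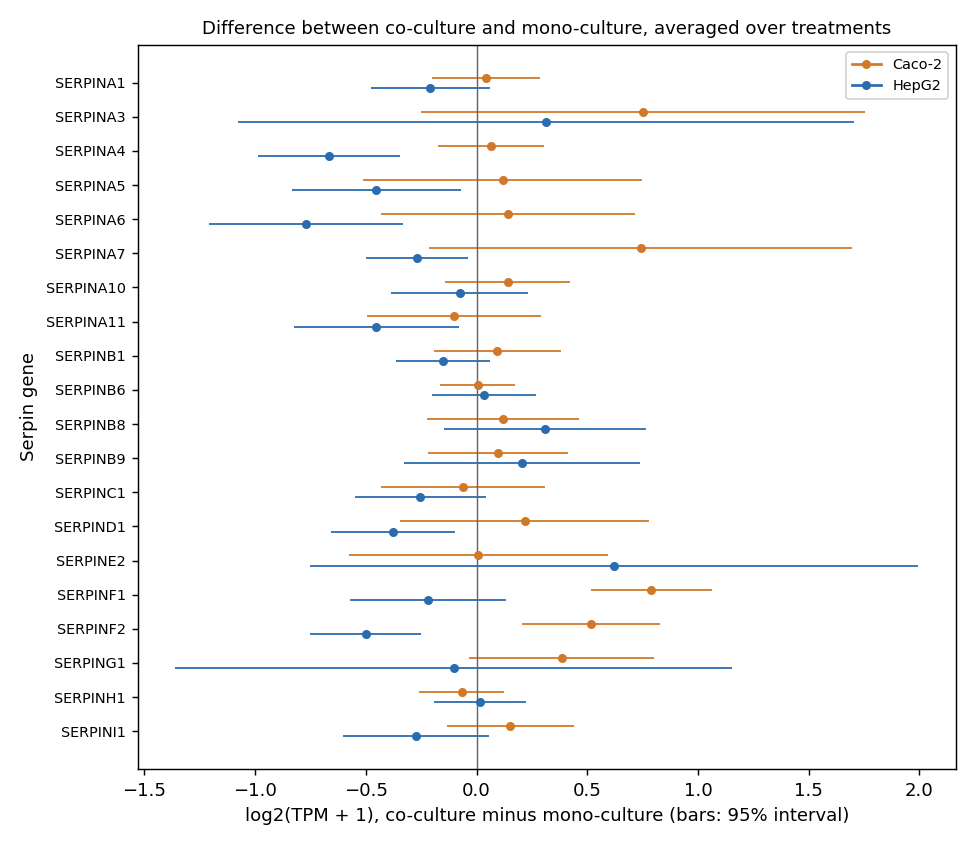
Difference in log2(TPM + 1) between co-culture and mono-culture, averaged over both treatments, for the serpin genes tested in each line (points: estimate; bars: 95% interval; orange: Caco-2; blue: HepG2). SERPINF1 and SERPINF2 lie right of 0 in Caco-2, SERPINA4, SERPINA6 and SERPINF2 lie left of 0 in HepG2, and in HepG2 the intervals of SERPINA5, SERPINA7, SERPINA11 and SERPIND1 also lie left of 0.

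SERPINF1 and SERPINF2 are neighbours on chromosome 17, read on the plus strand, with 6763 bases between the end of SERPINF2 and the start of SERPINF1 (GRCh38; SERPINF2 chr17:1742836-1755265, SERPINF1 chr17:1762029-1777565). In Caco-2, SERPINF1 was at 27.78, 21.39 and 24.42 TPM in mono-culture control, 20.98, 21.07 and 30.37 TPM in mono-culture with FFAs, 48.46 and 39.27 TPM in co-culture control, and 46.88, 41.65 and 35.6 TPM in co-culture with FFAs. All 5 co-cultured libraries were above all 6 mono-cultured ones, as was the case for 1.38% of genes in one direction or the other. The difference averaged over treatments was 0.79 (SE 0.12, unadjusted p 5.1e-05, adjusted p 0.128). SERPINF1 also had the smallest unadjusted p of the members without FFAs (difference 0.81, unadjusted p 0.00106, adjusted p 0.867) and with FFAs (0.77, unadjusted p 0.000722, adjusted p 0.543).

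SERPINF2 in Caco-2 was at 256.9, 253.5 and 169.5 TPM in mono-culture control, 174.9, 232.0 and 224.5 TPM in mono-culture with FFAs, 321.0 and 297.9 TPM in co-culture control, and 274.7, 400.6 and 267.3 TPM in co-culture with FFAs. Co-cultured and mono-cultured libraries again did not overlap. The averaged difference was 0.52 (SE 0.14, unadjusted p 0.00372, adjusted p 0.308). In co-cultured, FFAs-treated Caco-2 replicate 1, the HepG2 share of RNA by itself would give 19.18 of the 46.88 TPM of SERPINF1. Of the 274.7 TPM of SERPINF2 it would give 9.87 TPM. In the other co-cultured Caco-2 libraries it would give 0.697 to 6.60 TPM of SERPINF1 and 0.380 to 3.60 TPM of SERPINF2. A relation between the share and either gene was not tested. This share was subtracted from the co-cultured libraries only, while mono-cultured ones, at 0.104% to 0.181% by the same markers, were left uncorrected. SERPINF1 was then at 42.21 and 38.61 TPM in co-culture control and at 28.29, 39.51 and 34.68 TPM in co-culture with FFAs. The 28.29 TPM now lay inside the mono-culture range, and the averaged difference of SERPINF1 was 0.60 (adjusted p 0.263). The averaged difference of SERPINF2 was 0.51 (adjusted p 0.297) after the subtraction.

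In HepG2, SERPINF2 was at 573.4, 654.3 and 606.8 TPM in mono-culture control, 539.1, 658.0 and 789.4 TPM in mono-culture with FFAs, 446.5, 437.3 and 398.3 TPM in co-culture control, and 396.1, 430.8 and 597.0 TPM in co-culture with FFAs. The co-cultured libraries were lower apart from one, FFAs replicate 3. The averaged difference was -0.50 (SE 0.11, unadjusted p 0.000949, adjusted p 0.125), and without FFAs, where SERPINF2 had the smallest p of the members, it was -0.52 (unadjusted p 0.00799, adjusted p 0.591). SERPINF1 in HepG2 was at 792.2 to 1165 TPM in mono-culture control, 820.7 to 1406 TPM in mono-culture with FFAs, 741.6 to 846.2 TPM in co-culture control and 757.7 to 1222 TPM in co-culture with FFAs, with all groups overlapping.

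The change with co-culture itself differed between the lines for this pair of neighbours. The HepG2 effect minus the Caco-2 effect was -1.02 for SERPINF2 (SE 0.19, adjusted p 0.0231) and -1.01 for SERPINF1 (SE 0.22, adjusted p 0.0435). These were 2 of 21 members, against a background of 0.533% of genes (88 of 16495). The estimates kept their sign in all 33 alternatives, but SERPINF1 was called in only 11 of them and SERPINF2 in 30. With the share of the other line subtracted, the adjusted p was 0.0954 for SERPINF1 and 0.0208 for SERPINF2. Without the co-cultured Caco-2 control replicate 1, which leaves 1 library in that group, they were 0.0981 and 0.0561, and without the mono-cultured HepG2 control replicate 2, 0.0801 and 0.0517. SERPINA4 came next (-0.73, adjusted p 0.0978) and was not called.

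SERPINA4 was the member whose HepG2 libraries did not overlap between cultures. It was at 50.38, 57.3 and 63.29 TPM in mono-culture control, 68.36, 59.39 and 75.46 TPM in mono-culture with FFAs, 36.52, 48.52 and 31.77 TPM in co-culture control, and 46.07, 27.59 and 45.87 TPM in co-culture with FFAs. All 6 co-cultured libraries were below all 6 mono-cultured ones, a separation in either direction that 1.35% of genes had. The averaged difference was -0.67 (SE 0.15, unadjusted p 0.000716, adjusted p 0.124), and with FFAs, where SERPINA4 had the smallest p, -0.78 (unadjusted p 0.00283, adjusted p 0.821). In Caco-2 the averaged SERPINA4 difference was within its error of 0, and every group mean lay between 51.1 and 60.7 TPM.

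Others with an unadjusted p under 0.05 in HepG2 were SERPINA6 (-0.77, adjusted p 0.167), SERPIND1 (-0.38), SERPINA11 (-0.45), SERPINA5 (-0.45) and SERPINA7 (-0.27), the last 4 with adjusted p from 0.274 to 0.322. SERPINA6 had group means of 385.3 ± 113.9 and 411.8 ± 54.3 TPM (SD, n = 3 each) in mono-culture and 249.4 ± 93.3 and 222.5 ± 13.9 TPM in co-culture, and its libraries overlapped between cultures. SERPINA1, the most abundant member, had libraries that overlapped between cultures in both lines.

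**Figure D3:**
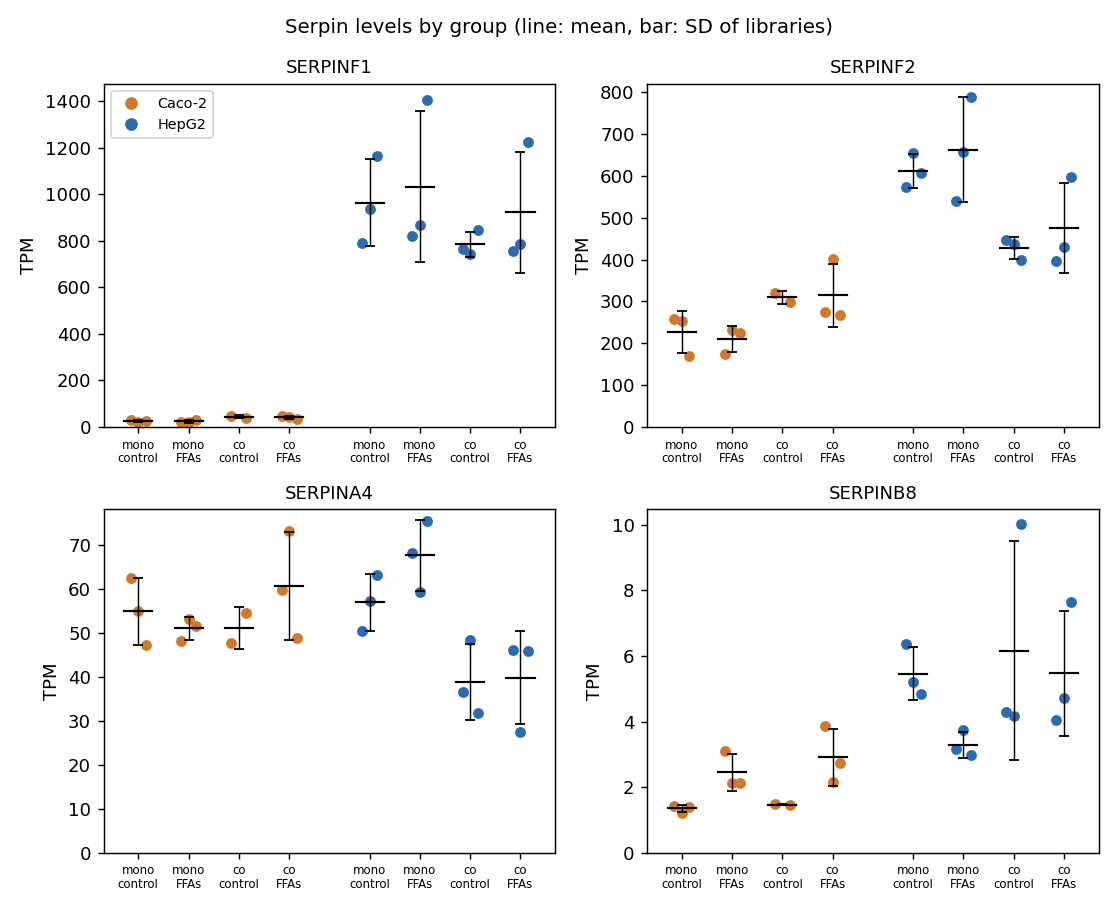
Level in TPM of SERPINF1, SERPINF2, SERPINA4 and SERPINB8 in every library of the 8 groups (orange: Caco-2; blue: HepG2; line: group mean; bar: SD). By group means, SERPINF2 is higher in co-culture in Caco-2 and lower in HepG2, with overlapping libraries in HepG2. Means of SERPINA4 are lower in co-cultured HepG2 cells, and those of SERPINB8 are higher with FFAs in Caco-2. None of these differences within a line passed the adjusted threshold in the reported fit.

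FFAs treatment was compared with control within each culture. No member passed limma's adjusted threshold, and at an unadjusted p under 0.05 there was 1 member of 21 in each Caco-2 comparison and 0 in each HepG2 comparison. Of all genes, 2.61% were under 0.05 in mono-culture, 2.83% in co-culture and 3.99% averaged over cultures in Caco-2, and 2.24%, 1.84% and 3.49% in HepG2, so 1 of 21 was near the background. After adjustment, in Caco-2 0% of genes passed in mono-culture, 0.0199% in co-culture and 0% averaged over cultures, and in HepG2 0% passed in all 3 comparisons. In Caco-2 the smallest unadjusted p of the members was that of SERPINB8, an intracellular inhibitor of furin and other proteases. It was at 1.43, 1.22 and 1.39 TPM in mono-culture control and at 3.11, 2.13 and 2.13 TPM with FFAs, and at 1.47 and 1.46 TPM in co-culture control and 3.85, 2.14 and 2.73 TPM with FFAs. All 6 FFAs-treated libraries were above all 5 controls, against 0.424% of genes that did not overlap. The difference was 0.55 in mono-culture (unadjusted p 0.0236), 0.64 in co-culture (0.0189) and 0.59 averaged (SE 0.16, unadjusted p 0.00289, adjusted p 0.99).

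In HepG2, SERPINB8 was at 6.36, 5.19 and 4.84 TPM in mono-culture control and at 3.16, 3.74 and 2.97 TPM with FFAs, and at 4.28, 4.18 and 10.03 TPM in co-culture control and 4.06, 4.71 and 7.64 TPM with FFAs. The FFAs-treated libraries were lower in mono-culture, a separation not counted over all genes, and mixed with the controls in co-culture. It had the smallest p in mono-culture (-0.59, unadjusted p 0.0694, adjusted p 1). No member separated FFAs-treated from control HepG2 libraries, as 0.0982% of genes did. No difference of the FFAs effect between cultures passed for any member, where 0% of genes passed in either line. The smallest p was that of SERPING1 in Caco-2 (0.64, unadjusted p 0.121) and SERPINB8 in HepG2 (0.50, unadjusted p 0.256). Between the lines, 0 members and 0.0182% of genes differed in their FFAs effect, and SERPINB8 had the smallest p of the members (-0.93, SE 0.26, unadjusted p 0.00203, adjusted p 1).

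By the criteria of the study, an unadjusted p under 0.05 over the 4 groups and a 1.2-fold difference between any pair of group means, 2 of the 29 members listed above 0 in that line met them in Caco-2 (SERPINB8 and SERPINF1), against a background of 3.08% of genes. In HepG2, 2 of 29 met them (SERPINA4 and SERPINF2), against 3.56%. None of these 4 remained after adjustment over all genes.

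The HepG2 libraries numbered 3 carried high levels of a few serpins. SERPINA3 was at 1043 to 2186 TPM in these 4 libraries and at 231.8 to 494.4 TPM in the other 8. SERPINE2 was at 58.0 to 131.4 TPM against 10.77 to 30.49 TPM, and SERPING1 at 50.34 to 86.35 TPM against 12.89 to 27.47 TPM. These were the 3 of 21 members without overlap, a share near the 11.7% of all genes, so the serpins are not set apart from that background. SERPINH1 overlapped (107.9 to 142.8 TPM against 102.0 to 134.7 TPM). In Caco-2, SERPINA5 (7.32 to 9.61 TPM against 10.33 to 22.4 TPM) and SERPINA6 (21.91 to 25.1 TPM against 25.87 to 52.01 TPM) were lower in the libraries numbered 3. They were 2 of the 21 members tested, beside 3.04% of all genes that did not overlap. What the number stands for is not given in the labels.

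**Figure D4:**
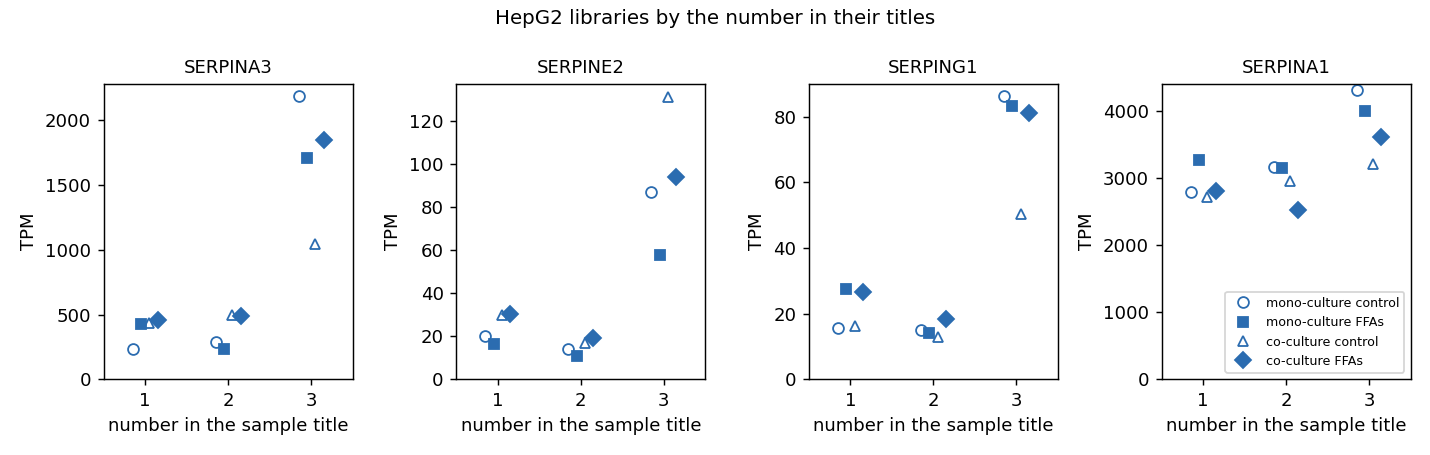
Level in TPM of SERPINA3, SERPINE2, SERPING1 and SERPINA1 in the 12 HepG2 libraries by the number in their titles (open symbols: control; filled: FFAs; circles and squares: mono-culture; triangles and diamonds: co-culture). The 4 libraries numbered 3 lie above the other 8 for the first 3 genes, while SERPINA1 overlaps.

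Proteases, collagen partners, clearance receptors, genes that handle alpha-1 antitrypsin, angiotensin genes and other protease inhibitors were followed in 9 lists of 107 genes. Not all of these genes are targets of serpins. Of the 94 tested between the lines, 47 were higher and 37 lower in HepG2, beside the 79.0% of all genes that were called, 4814 higher and 8216 lower of 16495. The counts of the lists below describe their genes and are not set apart from that background. The plasminogen list had 4 higher and 1 lower of 7 tested, among them CPB2, an inhibitor of fibrinolysis (difference 5.57), and PLG, plasminogen, listed at 0 to 0.73 TPM in Caco-2 and at 3.94 to 36.8 TPM in HepG2. PLGRKT and LRP1 were not called (0.12 and -0.04). Of 13 clotting and contact proteases, 8 were higher and 4 lower. Prothrombin (F2) was at 118.2 to 179.0 TPM in Caco-2 and 615.4 to 841.1 TPM in HepG2, protein C (PROC) at 21.9 to 44.7 and 188.2 to 294.5 TPM, and factor X (F10) at 94.3 to 163.7 and 103.7 to 201.8 TPM. Among the targets of SERPINC1, SERPIND1, SERPINA5 and SERPINA10, these 3 enzymes were all above 20 TPM in every library.

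The trypsin-like and membrane proteases ran the other way, with 1 higher and 11 lower of 13 tested and a median difference of -4.03. Matriptase (ST14) was at 604.3 to 700.7 TPM in Caco-2 and 1.36 to 4.18 TPM in HepG2, PRSS8, prostasin, at 466.4 to 590.4 and 16.6 to 60.2 TPM, and hepsin (HPN) at 37.8 to 73.5 and 152.8 to 284.2 TPM. Neutrophil elastase (ELANE), the best-known target of SERPINA1, was listed at 0 in every library. Of the other inhibitors, 10 were higher and 7 lower. Alpha-2 macroglobulin (A2M) was at 1.96 to 78.2 TPM in Caco-2 and at 4907 to 7927 TPM in HepG2, AMBP at 6.47 to 62.0 and 3383 to 5848 TPM, and the trypsin inhibitor SPINK1 at 3660 to 6766 and 48.4 to 253.1 TPM. SPINT2, an inhibitor of matriptase and prostasin, had the smallest p (difference -8.74).

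SERPINH1 and its collagen partners did not follow one direction. Of 14 tested, 7 were higher and 5 lower in HepG2, where SERPINH1 was lower. The clients COL1A1 (27.4 to 47.4 TPM in Caco-2, 0.21 to 5.70 TPM in HepG2) and COL2A1 (109.8 to 222.3 and 3.26 to 25.0 TPM) were lower in HepG2, whereas the modifying enzymes P4HB (difference 1.13; 872.1 to 1067 and 1911 to 2418 TPM) and PLOD1 (118.9 to 144.6 and 166.6 to 225.1 TPM) were higher. Of 13 genes that handle alpha-1 antitrypsin in the endoplasmic reticulum, 10 were higher and 2 lower in HepG2. LMAN1, its export receptor, was at 23.5 to 28.6 TPM in Caco-2 and 101.2 to 146.1 TPM in HepG2 (difference 2.22), and the chaperone HSPA5 at 578.2 to 759.5 and 829.2 to 1259 TPM, while calnexin (CANX) was not called (0.02).

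Of 7 cysteine proteases, 2 were higher and 3 lower in HepG2, with CTSV the strongest (difference -4.64), CTSB at 617.8 to 990.5 and 620.9 to 1235 TPM and CTSL at 59.0 to 76.3 and 80.9 to 125.0 TPM. The angiotensin genes had 2 higher and 3 lower of 6, led by ANPEP (4.98). The clearance receptors had 3 higher and 1 lower of 5, with LRP2 lower (-2.54). Within a line, 0 of the 83 partner genes tested in Caco-2 and 0 of the 81 in HepG2 passed in any of the 14 comparisons of culture or FFAs. In the difference of the co-culture effect between lines, 1 of 94 passed, beside 0.533% of all genes. It was the membrane protease TMPRSS2 (-0.98, SE 0.18, adjusted p 0.0208). TMPRSS2 was low in HepG2, at 1.17 to 5.36 TPM against 51.25 to 74.67 TPM in Caco-2, and its call was not followed through the alternatives.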

How the data were processed

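The members and gene lists were chosen with earlier results of these data known. The authors deposited TPM per gene for each of the 23 libraries. According to the labels and the methods, total RNA was amplified with SMART-Seq v4, which does not keep strand. The authors discarded ribosomal, transfer and mitochondrial RNA reads (Bowtie2 2.1.0), aligned to GRCh38 with Ensembl annotation (STAR 2.7.1a) and estimated TPM with RSEM 1.3.0. The deposited TPM hold no counts, so depth is unknown and no counting error is given. TPM sum to a fixed total, so a rise of some genes lowers all others. No pair of libraries was identical.

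Groups came from the sample titles. Values were tested as log2(TPM + 1) with limma 3.58.1 (eBayes with trend, R 4.3.3) with all 4 groups of a line, or all 8 groups, in one fit, keeping genes that averaged 1 TPM or more in any group. P-values were adjusted by Benjamini-Hochberg over all genes kept, with a threshold of 0.05. The code was tested on simulated data. The study criteria were an analysis of variance and a 1.2-fold difference. RNA of one line in the other was the summed TPM of genes at 50 TPM or more in every mono-culture control library of one line and 1 TPM or less in those of the other, serpins left out, as a percent of their sum in the source line. Coordinates come from GENCODE 44 on GRCh38.

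Levels were given for members averaging 20 TPM or more in any group. The members called, or else the one with the smallest p, were named, and of each list the called or smallest-p gene and the 3 highest. SERPINB8 and SERPINB9 are described with their clusters. ELANE was named after its values were seen. Some genes are counted but not reported here by name. Alternatives were a pseudocount of 0.1, no filter, a mean of at least 5 TPM, median-of-ratios scaling, quantile normalization and no trend. Further alternatives were fitting only the groups compared, a replicate block, each library left out and the other line's share subtracted from co-cultured libraries. Those added after seeing the data were leaving out the libraries numbered 3 and the block without 1 Caco-2 library.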

Additional observations from a re-analysis of the deposited data

Results flagged for a closer look

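SERPINF2, difference of the co-culture effect between HepG2 and Caco-2: the effect averaged over treatments was 0.52 in Caco-2 and -0.50 in HepG2, and limma's test of the difference itself gave -1.02 (SE 0.19, adjusted p 0.0231 over all genes). In Caco-2 all 5 co-cultured libraries were higher than all 6 mono-cultured ones. The adjusted p ranged from 0.0127 to 0.0561 over the alternatives.

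SERPINF1, the neighbouring gene, differed between the lines by -1.01 (SE 0.22, adjusted p 0.0435), with a Caco-2 effect of 0.79. The adjusted p ranged from 0.00774 to 0.0981. HepG2 marker RNA was highest in 2 of the 5 co-cultured Caco-2 libraries, and with that share subtracted the difference was -0.81.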

How the results depend on the processing

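The counts of serpins called kept their size in most alternatives for all results but 1. For the difference of the co-culture effect between the lines, 22 of 33 alternatives gave 0 to 1 members and 11 gave 2. Between the lines 16 to 17 members were called averaged over conditions, and 14 to 16 in mono-culture control, when 1 library was left out. Scaling by the median of ratios moved the median difference of all genes from -0.24 to -0.04, and quantile normalization to 0.02. With the former SERPINI1 (0.056), SERPINB6 (0.13) and SERPINA4 (0.0856) changed sign, and with the latter SERPINI1 (0.11), SERPINB6 (0.12), SERPINB9 (0.11) and SERPINA4 (0.0798), none of them called in any of these fits. SERPINA4 between cultures in Caco-2 ranged from -0.0066 (without the co-cultured FFAs replicate 2) to 0.1375 when 1 library was left out.

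The difference of the co-culture effect between lines gave 2 members in the reported fit, 0 without a filter on low values, 1 each with median-of-ratios scaling, without the trend and with the share subtracted, and 0 to 2 when 1 library was left out. Co-culture in Caco-2 gave 0 to 1 members when 1 library was left out, the 1 being SERPINF1 without the mono-cultured FFAs replicate 3. The study criteria in Caco-2 gave 1 member with a mean of at least 5 TPM, 1 with quantile normalization (SERPINF1 both times) and 0 after Benjamini-Hochberg adjustment. Without the libraries numbered 3 they gave 2 in Caco-2, SERPINA10 and SERPINF1, and SERPINB8 no longer met them. In HepG2 they gave 0 after adjustment, 4 without the libraries numbered 3 and 1 to 3 when 1 library was left out. Leaving out a co-cultured Caco-2 control leaves a lone library that is assumed to vary like the others.

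The labels share replicate numbers, and deviations from the group means were correlated between libraries of different groups. Of same-numbered pairs, 7 of 15 in Caco-2 and 15 of 18 in HepG2 correlated above 0.1 (median 0.088 and 0.3045). Of differently numbered pairs, 6 of 30 in Caco-2 and 7 of 36 in HepG2 did (median -0.1185 and -0.2265). With the number as a replicate block, 1 member (SERPINF1) was called between cultures in Caco-2, among 60 of 15081 genes (0 without the block), and 4 in HepG2 (SERPINA4, SERPINF2 and SERPINA6 lower, SERPINE2 higher), among 492 of 14255 genes (8 without the block). With the block but without the Caco-2 library richest in HepG2 marker RNA, 0 members and 5 genes were called in Caco-2. With the block, the study criteria gave 4 in HepG2, and the difference between lines gave 2. Since TPM carry no depth, low members such as SERPINB8 and SERPINB9 have an unknown counting error.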
